A study of Mus musculus with 4 samples.

Results

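The nuclear genes for proteins of the mitochondrial ribosome were examined in sorted periosteal cells of Sfrp4-/- and WT mice. All protein-coding genes whose symbol begins with Mrpl or Mrps followed by a digit were taken. This gave 78 of the 54532 genes in the deposited table. By their known place in the ribosome, 51 belong to the large subunit and 26 to the small subunit. The symbols Mrps18a and Mrps30 name proteins that sit in the large subunit, and Mrps36 encodes a subunit of the alpha-ketoglutarate dehydrogenase complex in spite of its name.

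The mitochondrial ribosome, or mitoribosome, translates the few messenger RNAs that the mitochondrial genome encodes, all of which specify core subunits of the respiratory chain and ATP synthase. Its ribosomal RNAs are made inside the organelle, whereas its proteins are encoded in the nucleus, translated in the cytosol and imported, so their supply has to be matched across both compartments. Some of the proteins have counterparts in bacterial ribosomes and others are specific to mitochondria. Loss of single mitoribosomal proteins in mammals impairs oxidative phosphorylation.

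The study asked how loss of Sfrp4, which encodes a secreted protein that binds Wnt ligands, affects stem cells of the periosteum, the sheet that covers bone. Bulk RNA-seq was made from long bone periosteum of mice aged 4 weeks without treatment. The Sfrp4-/- group had 2 libraries and the WT group had 2 libraries, each from the pooled cells of 3 mice. All mice of both groups carried a Cre recombinase driven by Ctsk and the mTmG reporter, which marks Ctsk-lineage cells with GFP. Cells were sorted as positive for GFP and CD200 and as negative for CD105, the lineage markers Ter119, CD31 and CD45, and the markers 6C3 and Thy1.2. The Sfrp4-/- genotype is not stated to be restricted to these cells. Since each library is a pool, p-values refer to the spread between pools rather than between mice, and this spread may in part be technical. In bulk libraries of this kind, a difference in the number of cells of a type and a difference in RNA per cell cannot be told apart.

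The libraries held 17119332 to 18750003 counts. Sfrp4 was at 11.4 and 12.1 CPM (counts scaled to library size with TMM factors) in the Sfrp4-/- libraries and at 90.8 and 107.5 CPM in the WT libraries. Its log2 fold change, here and below Sfrp4-/- minus WT, was -3.08 ± 0.31 (SE), which edgeR's quasi-likelihood test did not call (adjusted p = 0.377, Benjamini-Hochberg over all genes tested). Ctsk was at 1461 and 1684 CPM in Sfrp4-/- and 1055 and 2050 CPM in WT libraries. Cd200 was at 442 and 465 CPM against 486 and 669 CPM, and Ptprc (CD45) at 9.45 and 6.81 CPM against 5.87 and 8.51 CPM. Eng (CD105) had 22 and 31 counts in Sfrp4-/- and 42 and 5 counts in WT libraries. Pecam1 (CD31) had 28 and 11 counts against 29 and 21, and Enpep (6C3) had 6 and 0 against 17 and 0. Thy1 had 0 counts in all 4 libraries. Ly76, the symbol taken for Ter119, was not in the deposited table. Of 13737 genes tested with edgeR, 0.00% had an adjusted p under 0.05, while 1.41% were higher and 0.706% lower at an unadjusted p under 0.05. Both Sfrp4-/- libraries lay above both WT libraries for 9 of 10 cell cycle genes and 5 of 8 erythroid genes. Over all genes tested this held for 15%. The cell cycle sums were 376 and 367 CPM against 219 and 217 CPM. The erythroid sums were 1974 and 2495 CPM against 705 and 2061 CPM. Both also lay above for 4 of 7 macrophage, 2 of 5 B cell, 2 of 8 neutrophil and granulocyte and 1 of 3 adipocyte genes tested. In these 6 lists 0 genes had both below. In the sort, periosteal and osteoblast, chondrocyte, osteoclast, endothelial and muscle lists 0 genes had both above. No measured gene of the cell cycle and erythroid lists was at 0 in all libraries. The part of cells marked by any of these lists in the results below was not tested.

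Mitoribosomal genes did not separate the genotypes. Of the 78 genes, 77 passed the filter on low counts, and 0 of these had an adjusted p under 0.05 with edgeR, DESeq2 or limma-voom. DESeq2 called 0.0364% of all genes tested and limma-voom 0.00%. None of the 77 had an unadjusted p under 0.05 with any of these tools, while over all genes tested DESeq2 gave 1.39% higher and 0.888% lower and limma-voom 1.2% and 0.757%. Instead, the genes moved together with the number in the library title: in 62 of 77 genes both libraries numbered 2 lay above both libraries numbered 1, against 24.9% of all genes tested. The labels do not say what that number marks.

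The promoters of the genes were described as well. Whether their motifs relate to the differences between libraries was not tested. RefSeq promoter sequences (GRCm38.p6, 250 bases before to 50 bases after the annotated start) were matched to 69 of the 78 symbols, with 75 promoters. Motif letters were searched on both strands. The ETS motif CCGGAAG, which GABPA and related activators of nuclear genes for mitochondrial proteins bind, occurred in 26 of 75 promoters (34.7%), against 16.9% of the promoters of the genes tested and 8.86% of all 32851 promoters. The NRF1 core GCATGCG, the YY1 core AGATGGC, the Sp1 motif GGGCGG and the CCAAT box occurred in 8 (10.7%), 12 (16%), 39 (52.0%) and 30 (40.0%) of the 75 promoters. The shares among the genes tested were 6.09%, 6.84%, 61.6% and 37.6%. In 37 promoters none of the ETS, NRF1 and YY1 letters were found, 30 promoters held 1 of the 3 kinds and 8 promoters held 2. These are matches of letters and not evidence of binding.
These examples, chosen after the matches were seen, show how the letters lie near the start. Each runs from 150 bases before to 30 bases after the start, 5′ to 3′ on the gene's strand, with matches to the ETS, NRF1, YY1 and CCAAT letters in capitals. Mrps12 (minus strand, chr7:28741792-28741971) holds CCAAT boxes and an ETS match at the start, and a Sp1 match on the reverse strand that is left in lower case. Mrps18a (plus strand, chr17:46110854-46111033) holds an ETS match before and a YY1 match after the start. Mrpl33 (plus strand, chr5:31613801-31613980) holds a CCAAT box and an NRF1 match on the reverse strand next to an ETS match. Mrpl52 (plus strand, chr14:54426759-54426938) holds 2 ETS matches on the reverse strand.
Mrps12: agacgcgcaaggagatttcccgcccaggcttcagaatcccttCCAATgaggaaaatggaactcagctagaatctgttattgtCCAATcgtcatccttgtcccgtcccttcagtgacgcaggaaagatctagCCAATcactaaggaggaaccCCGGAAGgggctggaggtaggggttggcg
Mrps18a: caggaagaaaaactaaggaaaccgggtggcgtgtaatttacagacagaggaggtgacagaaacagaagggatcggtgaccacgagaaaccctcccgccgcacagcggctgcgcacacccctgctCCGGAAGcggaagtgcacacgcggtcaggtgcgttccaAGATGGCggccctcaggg
Mrpl33: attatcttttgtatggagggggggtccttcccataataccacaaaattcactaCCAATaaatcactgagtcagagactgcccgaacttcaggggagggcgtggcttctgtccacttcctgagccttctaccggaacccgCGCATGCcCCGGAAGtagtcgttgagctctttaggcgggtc
Mrpl52: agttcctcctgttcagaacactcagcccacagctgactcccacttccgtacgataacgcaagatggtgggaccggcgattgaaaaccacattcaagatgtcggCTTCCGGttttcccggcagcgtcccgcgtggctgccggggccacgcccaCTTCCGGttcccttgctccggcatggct

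All but 1 of the genes were detected in every library. Across the 77 tested genes the median level per length was 56.8 TPM in Sfrp4-/- means and 49.5 TPM in WT means. The medians of the protein-coding genes tested were 8.35 TPM and 7.53 TPM, so the mitoribosomal genes lay several-fold above the typical gene in both genotypes. TPM, a level per gene length, was computed from the deposited counts and gene lengths. The middle of the distribution was broad, with quartiles of 29.1 and 109 TPM in Sfrp4-/- means and 26.0 and 103 TPM in WT means.

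The highest level per length was that of Mrpl28 (chromosome 17, 26123520 to 26126613, plus strand, mm10), a large subunit protein with a bacterial counterpart, at 354 and 523 TPM in Sfrp4-/- libraries and 279 and 625 TPM in WT libraries. Mrps28, of the small subunit, followed at 272 and 433 TPM in Sfrp4-/- and 244 and 382 TPM in WT libraries. Mrpl18, a protein of the large subunit, was at 217 and 330 TPM in Sfrp4-/- and 199 and 321 TPM in WT libraries. For each of these 3 genes the ranges of the genotypes overlapped, and each gene overlapped its neighbour in the order. Mrpl36, a small zinc-binding protein of the large subunit, had 168 and 248 TPM in Sfrp4-/- and 164 and 216 TPM in WT libraries. Mrpl43, a mitochondria-specific protein, had 178 and 206 TPM in Sfrp4-/- and 138 and 224 TPM in WT libraries, but it has 33.4% of its exon bases in common with other genes. Libraries without strand cannot assign such reads.

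At the low end of the order by WT level stood Mrpl33, a protein of the large subunit, with 5.03 and 15.6 TPM in Sfrp4-/- and 3.44 and 8.55 TPM in WT libraries. Mrps9, a small subunit protein of bacterial type, had 8.23 and 12.9 TPM in Sfrp4-/- and 8.44 and 6.48 TPM in WT libraries. Mrpl47, of the large subunit, had 10.4 and 16.7 TPM in Sfrp4-/- and 7.20 and 13.4 TPM in WT libraries. These 3 genes overlapped one another, so their order is not resolved. Mrps35 had 8.28 and 15.1 TPM in Sfrp4-/- and 7.68 and 15.5 TPM in WT libraries. Mrps5, a protein of the decoding side of the small subunit, had 14.1 and 13.7 TPM in Sfrp4-/- and 15.6 and 12.1 TPM in WT libraries. The order depends on gene length. It was repeated with the longest protein-coding transcript of GENCODE M21 in place of the deposited length, a choice made after seeing the data. In that order 3 of the highest 5 and 2 of the lowest 5 genes stayed among those 5, not all at the same rank. Mrpl33 then ranked 32 of 77 instead of 77.

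**Figure D1:**
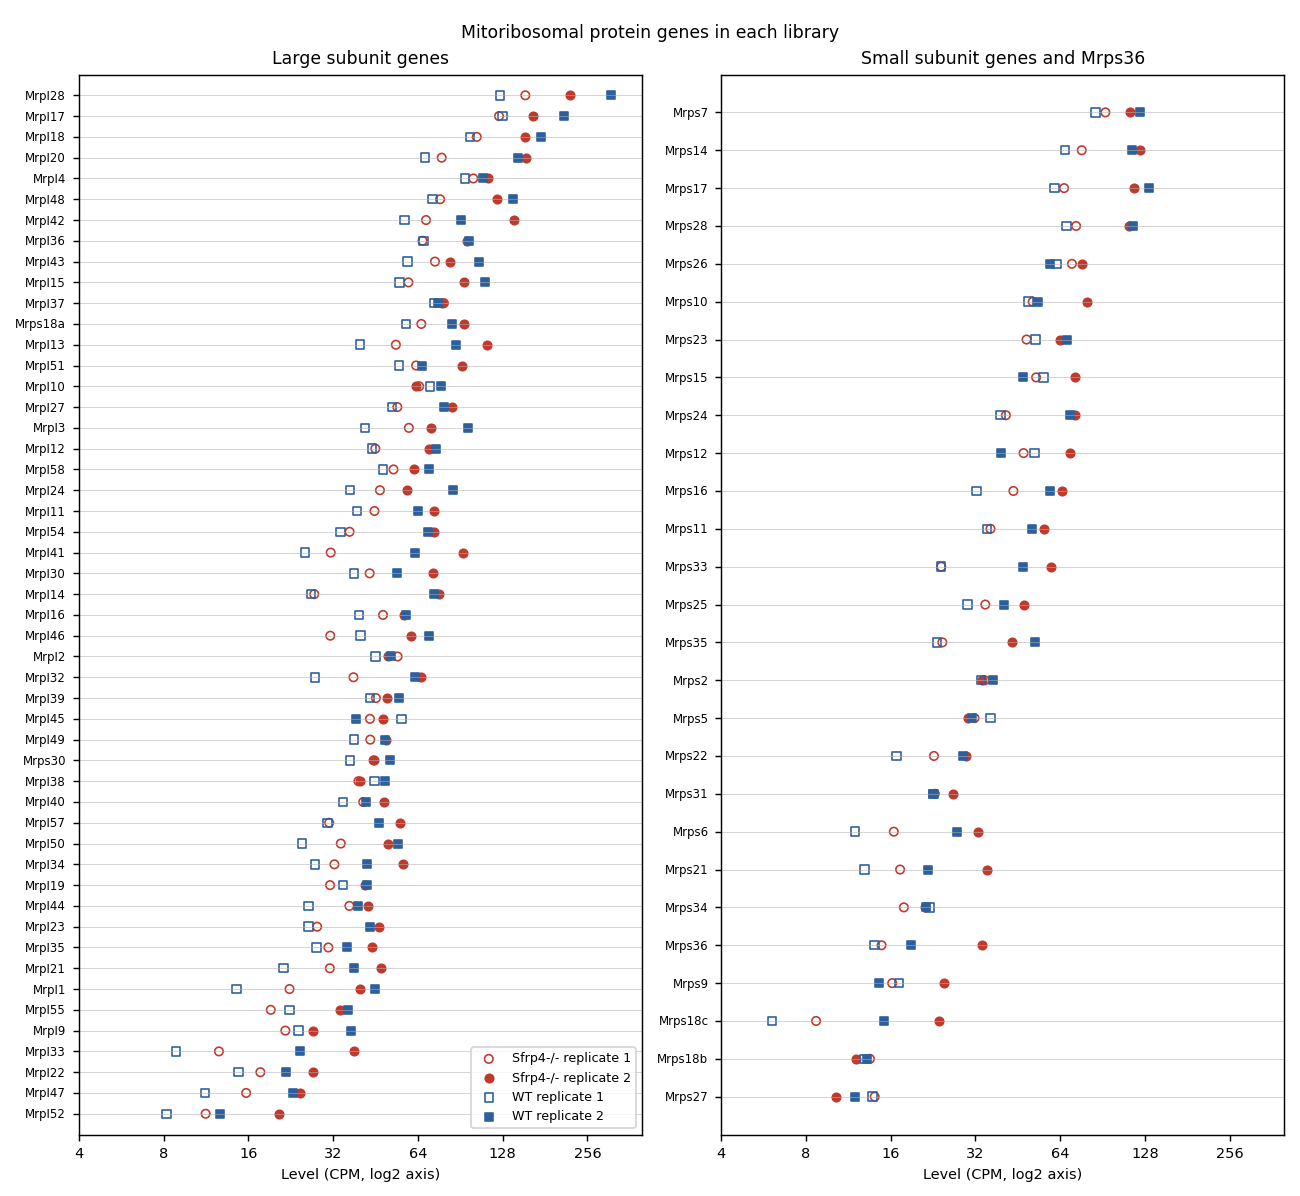
Level of each of the 77 tested genes in each library, in CPM on a log2 axis, with Sfrp4-/- libraries as red circles and WT libraries as blue squares. Filled symbols are the libraries numbered 2, which lie to the right of the open symbols in most rows of both panels.

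Mrpl53, a large subunit gene on chromosome 6 (83109040 to 83109939, plus strand, mm10), had 0 counts in all 4 libraries. It shares 88.0% of its exon bases with the antisense gene Ccdc142os and the read-through gene Gm42688. Gm42688 was itself at 1 and 8 counts in Sfrp4-/- and at 3 and 0 counts in WT libraries. A count of 0 therefore does not show that the gene was silent. In all, 25 of the 78 genes (32.1%) have more than 5% of exon bases in common with some other gene. Pseudogene copies took few counts, the most for Mrpl48-ps, with 31 and 64 counts in Sfrp4-/- and 25 and 61 counts in WT libraries.

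The genotype comparison showed narrow differences with large errors. The median log2 fold change of the 77 genes was 0.094, with an interquartile range of -0.070 to 0.27, against a median of 0.0031 for all genes tested. There were 49 genes above 0, against 50.4% of all genes tested, and the fold changes ran between -0.33 (Mrpl9) and 0.61 (Mrps18c). Their SD was 0.228, against 0.354 for the 5846 genes in the same level range and 0.766 for all genes tested. The level range runs from the lowest to the highest mean CPM of the 77 genes, which it includes. The median mean level was 34.5 CPM in that range and 49.9 CPM in the 77 genes, so levels were not matched. A change of less than 1.5-fold was seen in 73 of 77 genes (94.8%), against 76.8% of all genes and 92.3% of those in the level range. The median SE of a fold change was 0.37 on the log2 scale. It comes from the fit with genotype only, whose error includes the difference between libraries numbered 1 and 2. Differences of modest size could not be resolved in this fit with 2 libraries per genotype. Without WT replicate 2 an unadjusted edgeR p under 0.05 was seen for Mrpl1, Mrpl33 and Mrps18c, each higher in Sfrp4-/-, against 3.92% of all genes tested, and without Sfrp4-/- replicate 1 for Mrpl33, against 1.19%. The median was -0.19 without Sfrp4-/- replicate 2 and -0.14 without WT replicate 1, and it was 0.34 without Sfrp4-/- replicate 1 and 0.45 without WT replicate 2.

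**Figure D2:**
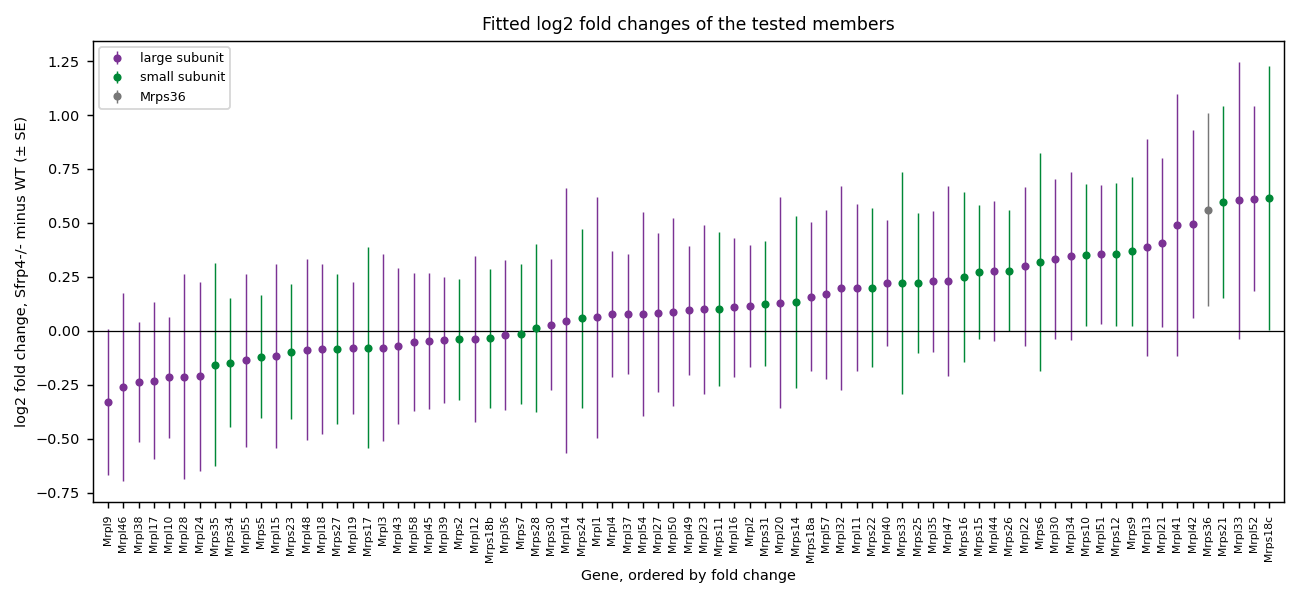
Fitted log2 fold change (Sfrp4-/- minus WT) of each tested gene with its SE, ordered by size and coloured by subunit. All points lie between -0.33 and 0.61, large and small subunit genes are mixed along the order, and most error bars cross 0.

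Both subunits gave similar values. The large subunit genes had a median log2 fold change of 0.080, with 31 of 50 above 0. The small subunit genes had a median of 0.13, with 17 of 26 above 0. Proteins with a bacterial counterpart had a median of 0.10 over 45 genes and mitochondria-specific proteins a median of 0.078 over 31 genes. The summed level of all 78 genes was 3489 and 5107 CPM in Sfrp4-/- libraries and 3190 and 5015 CPM in WT libraries. The means were 4298 ± 1144 CPM in Sfrp4-/- and 4103 ± 1290 CPM in WT libraries (SD, n = 2 each), a ratio of 1.05. The genotypes overlapped and the exact two-sided permutation test gave p = 0.667, where 0.333 is the smallest that 2 against 2 libraries allow. The log2 ratio of the sums was 0.067, and it was -0.23 without Sfrp4-/- replicate 2 and -0.22 without WT replicate 1.

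The balance between the subunits was also within the spread between libraries. Summed large subunit genes were at 2476 and 3624 CPM in Sfrp4-/- and 2235 and 3680 CPM in WT libraries. Summed small subunit genes were at 998 and 1449 CPM in Sfrp4-/- and 941 and 1316 CPM in WT libraries. The ratio of the sums, large over small, was 2.48 and 2.50 in Sfrp4-/- and 2.37 and 2.80 in WT libraries (exact two-sided permutation p = 1.00). As a share of the summed CPM of nuclear respiratory chain genes, the mitoribosomal genes were at 31.8% and 33.2% in Sfrp4-/- and 32.6% and 33.4% in WT libraries. This share was nearly the same in all 4 libraries although the sums themselves differed by up to 1.57-fold between replicates. Against the summed CPM of cytosolic ribosomal protein genes the share was 23.3% and 20.7% in Sfrp4-/- and 25.7% and 19.5% in WT libraries. It was thus the lower in the library numbered 2 of each genotype.

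**Figure D3:**
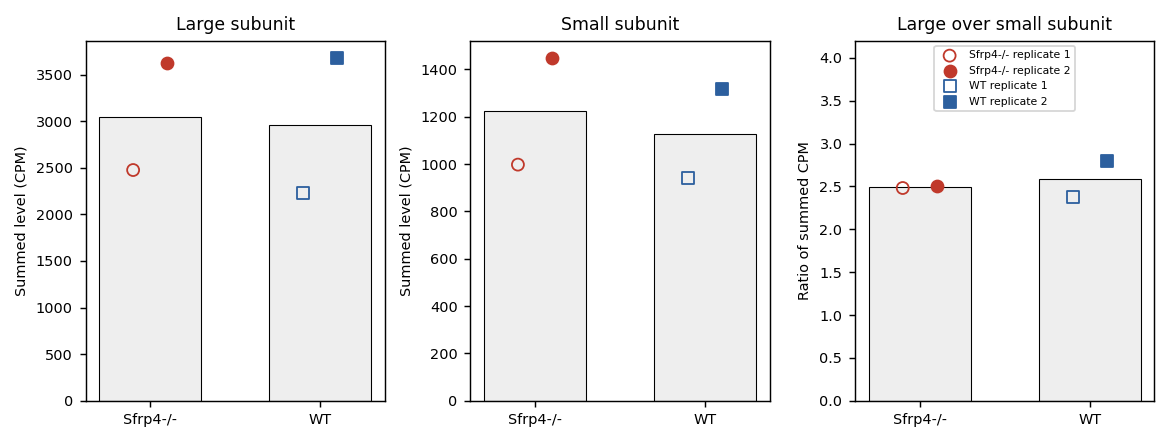
Summed CPM of large subunit genes, of small subunit genes, and the ratio of the sums, per library (points) with the mean of each genotype (bars). Within each genotype the library numbered 2 is the higher for both sums, and the ratio lies between 2.37 and 2.80.

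The 6 genes with the lowest unadjusted p in the higher direction were examined by library. Mrpl52 (ENSMUSG00000010406, chromosome 14, 54426909 to 54429756, plus strand), a mitochondria-specific protein of the large subunit, was at 11.3 and 20.6 CPM in Sfrp4-/- and 8.20 and 12.7 CPM in WT libraries (log2 fold change 0.61 ± 0.43, SE). Mrps21, a small subunit protein with a bacterial counterpart, was at 17.3 and 35.0 CPM in Sfrp4-/- and 12.9 and 21.6 CPM in WT libraries (0.60 ± 0.45). Mrps36, the dehydrogenase subunit, was at 14.8 and 33.7 CPM in Sfrp4-/- and 14 and 18.9 CPM in WT libraries (0.56 ± 0.45). In all 3 genes the Sfrp4-/- library numbered 1 lay inside the WT range, while that numbered 2 was the highest of the 4. Mrpl42, of the large subunit, was at 68.4 and 141 CPM in Sfrp4-/- and 57.4 and 91.0 CPM in WT libraries (0.50 ± 0.44). Mrpl51, also of the large subunit, was at 63.1 and 91.8 CPM in Sfrp4-/- and 55.0 and 66.2 CPM in WT libraries (0.35 ± 0.32). Mrps12, a protein of the decoding centre, was at 47.4 and 69.3 CPM in Sfrp4-/- and 51.8 and 39.6 CPM in WT libraries (0.35 ± 0.33). The genotypes overlapped for these genes as well, and the lowest unadjusted p among all 77 was 0.199, for Mrpl52 (edgeR adjusted p = 1.00). Without Sfrp4-/- replicate 2 the log2 fold changes were 0.12 for Mrpl52, 0.0027 for Mrps21, 0.062 for Mrpl51 and 0.060 for Mrps12, and below 0 for Mrps36 and Mrpl42.

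In the lower direction the differences were smaller. Mrpl9 (ENSMUSG00000028140, chromosome 3, 94443318 to 94451130, plus strand), a protein of the large subunit with a bacterial counterpart, was at 21.7 and 27 CPM in Sfrp4-/- and 24.1 and 37.0 CPM in WT libraries (log2 fold change -0.33 ± 0.34, SE). Mrpl17 was at 124 and 164 CPM in Sfrp4-/- and 128 and 211 CPM in WT libraries (-0.23 ± 0.36), and Mrpl46 was at 31.3 and 60.7 CPM against 40.1 and 70.1 CPM (-0.26 ± 0.44). Both belong to the large subunit, and the genotypes overlapped in each of these 3 genes. Mrpl38, a mitochondria-specific protein of the large subunit, was at 39.4 and 40.0 CPM in Sfrp4-/- and 44.8 and 48.8 CPM in WT libraries (-0.24 ± 0.28). Mrpl10, which anchors the stalk where translation factors dock, was at 64.7 and 62.8 CPM in Sfrp4-/- and 70.7 and 77.4 CPM in WT libraries (-0.22 ± 0.28). Mrps34, a small subunit protein, was at 17.8 and 21.2 CPM in Sfrp4-/- and 21.9 and 21.3 CPM in WT libraries (-0.15 ± 0.30), with 77.8% of its exon bases shared with another gene. In these last 3 genes both Sfrp4-/- libraries lay below both WT libraries. With library totals alone as the scale, Mrpl10, Mrpl17 and Mrps34 had log2 fold changes above 0.

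Mrpl10, Mrpl38 and Mrps34 were the only genes of the 77 with both Sfrp4-/- libraries below, against 12.6% of all genes tested. Both Sfrp4-/- libraries lay above both WT libraries in 3 others, Mrpl37, Mrps26 and Mrps31, against 15% of all genes tested. They were named after their values were seen. A gene with both libraries numbered 2 above, or both below, both libraries numbered 1 cannot meet either condition. That held for 62 and 2 of the 77 genes, against 24.9% and 24.8% of all genes tested. The low counts of genes with separate genotypes are thus not independent of the difference between numbers. Mrps26 was at 70.4 and 76.3 CPM in Sfrp4-/- and 62.0 and 59.0 CPM in WT libraries (log2 fold change 0.28 ± 0.28). Mrpl37 was at 79.2 and 77.6 CPM in Sfrp4-/- and 73.4 and 75.1 CPM in WT libraries. Mrps31 was at 22.9 and 26.6 CPM in Sfrp4-/- and 22.7 and 22.6 CPM in WT libraries. With library totals alone as the scale, which moves the median over all genes tested to 0.24, these counts were 9 genes above and 0 below, against 27.1% and 5.19% of all genes tested.

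Mrps18a, Mrps18b and Mrps18c are paralogs of a bacterial protein of the small subunit that took separate places in the mitoribosome. Mrps18a was at 65.8 and 93.4 CPM in Sfrp4-/- and 58.2 and 84.5 CPM in WT libraries (log2 fold change 0.16 ± 0.34, SE). Mrps18b, which overlaps another gene over 30.5% of its exon bases, was nearly level across libraries, at 13.5 and 12.1 CPM in Sfrp4-/- and 12.9 and 13.2 CPM in WT libraries (-0.03 ± 0.32). Mrps18c, which takes the bacterial position, was at 8.69 and 23.8 CPM in Sfrp4-/- and 6.07 and 15.2 CPM in WT libraries (0.61 ± 0.61). The paralogs thus differed among themselves in how far the libraries of a genotype lay apart, and in none of them were the genotypes separate. Per length, Mrps18c reached 23.6 and 66.6 TPM in Sfrp4-/- and 16 and 36.2 TPM in WT libraries, below Mrps18a in each library, at 52.2 and 76.1 TPM in Sfrp4-/- and 44.7 and 58.9 TPM in WT libraries.

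The pattern most of the genes shared was a difference between the libraries numbered 1 and 2. The library numbered 2 was the higher in 70 of 77 genes in Sfrp4-/- and in 68 of 77 genes in WT, and in both genotypes in 63. The median difference, number 2 minus number 1, was 0.57 in Sfrp4-/- and 0.61 in WT on the log2 CPM scale, against 0.0046 and -0.037 for all genes tested. Across the 77 genes the differences in Sfrp4-/- and in WT had a Pearson r of 0.66. It was 0.26 across all 13737 genes and 0.55 across the 5846 genes in the same level range. Across the nuclear respiratory chain genes it was 0.84, and across the cytosolic ribosomal protein genes 0.42. Genes are not independent replicates and each axis rests on a single pair of libraries. The count of genes with both libraries numbered 2 on top was 61 with median-of-ratios factors (24.8% of all genes tested) and 66 with library totals alone (33.2%), scalings tried for this count after seeing the data.

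**Figure D4:**
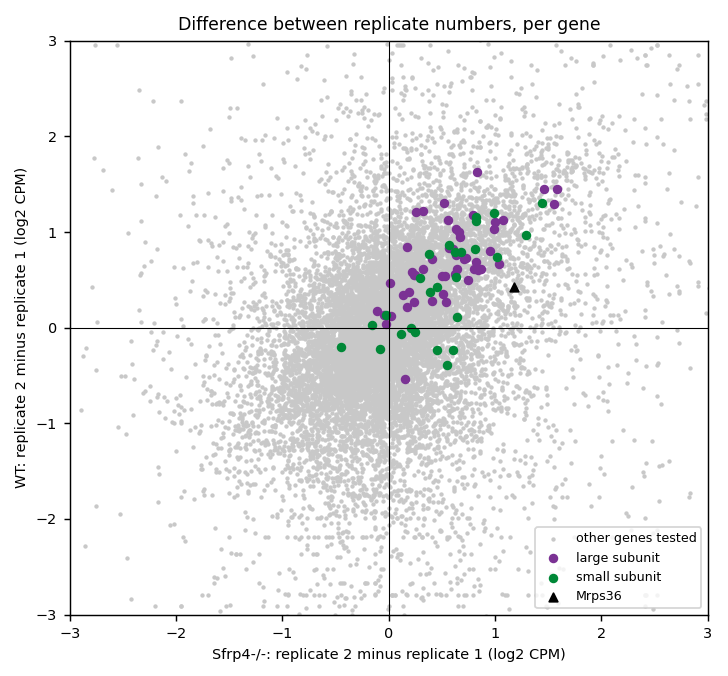
Difference between the libraries numbered 2 and 1 in log2 CPM, in Sfrp4-/- (horizontal) and in WT (vertical), for each tested gene, with mitoribosomal genes coloured by subunit over all other genes in grey. Of the coloured points, 63 lie in the upper right field, and 692 other genes fall outside the plotted range of 3 in either direction.

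The order of the libraries was shared as well. The order WT replicate 1, Sfrp4-/- replicate 1, WT replicate 2, Sfrp4-/- replicate 2, low to high, was found in 37 of 77 genes (48.1%), against 8.36% of all genes tested. The same order with the last pair exchanged was found in 18 genes (23.4%), against 8.58%. Sfrp4-/- replicate 2 held the highest value in 42 genes and WT replicate 2 in 28, against 26.1% and 26.3% of all genes tested. WT replicate 1 held the lowest value in 58, against 28.5%.

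The largest differences within a genotype were those of Mrpl33 in Sfrp4-/- and Mrpl1 in WT. Mrpl33 (chromosome 5, 31596935 to 31664384, plus strand), whose promoter is printed with the motif counts, was at 12.6 and 38.0 CPM in Sfrp4-/- and 8.87 and 24.4 CPM in WT libraries, a difference of 1.59 and 1.45 on the log2 scale between numbers 2 and 1. Mrpl1 (chromosome 5, 96209493 to 96266727, plus strand), whose bacterial counterpart forms the stalk beside the exit site for tRNA, was at 22.4 and 39.9 CPM in Sfrp4-/- and 14.5 and 45.1 CPM in WT libraries, a difference of 0.83 and 1.63. Their genotype differences were far smaller than the gap between numbers, at 0.60 ± 0.64 and 0.06 ± 0.56 (log2 fold change, SE). Going the other way were Mrps5 and Mrps27, the only 2 genes with both libraries numbered 2 below both numbered 1, against 24.8% of all genes tested. Mrps27, a small subunit protein named after its values were seen, was at 14 and 10.3 CPM in Sfrp4-/- and 13.8 and 12 CPM in WT libraries.

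Large subunit genes shared the pattern in 45 of 50 cases and small subunit genes in 16 of 26. Genes of bacterial type shared it in 38 of 45 cases and mitochondria-specific genes in 23 of 31. Over all genes tested the share was 24.9%, and differences between these subgroups were not tested. The stalk proteins Mrpl11 and Mrpl12 showed the pattern and Mrpl10 did not. Mrpl11 was at 44.9 and 73.2 CPM in Sfrp4-/- and 38.9 and 63.9 CPM in WT libraries, and Mrpl12 was at 45.2 and 70.1 CPM against 43.9 and 74.4 CPM. At the rim of the exit tunnel, where nascent chains leave the ribosome, Mrpl22, Mrpl23 and Mrpl24 showed it, while Mrpl45, which ties the ribosome to the inner membrane, was at 43.2 and 48.2 CPM in Sfrp4-/- and 56.0 and 38.5 CPM in WT libraries. Among the 53 genes with no more than 5% of exon bases shared with another gene, 42 showed the pattern.

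Other gene groups differed between the same libraries. Both libraries numbered 2 were on top in 81 of 86 genes for cytosolic ribosomal proteins and in 65 of 78 nuclear respiratory chain genes. The share over all genes tested was 24.9%. The summed mRNAs of the mitochondrial genome, the templates of the mitoribosome, were at 7361 and 15255 CPM in Sfrp4-/- and 7203 and 14687 CPM in WT libraries, and the mitochondrial large ribosomal RNA gene mt-Rnr2 was at 1047 and 2360 CPM against 932 and 3134 CPM. Most markers of the periosteal and osteoblast lineage lay the other way, with both libraries numbered 2 below in 6 of 9. Both were above in 1, Bglap, at 5202 and 6853 CPM in Sfrp4-/- and 5991 and 8420 CPM in WT libraries. The sums of the list were 264540 and 137363 CPM in Sfrp4-/- and 369065 and 216983 CPM in WT libraries. Sparc, Col1a1 and Col1a2 made up most of these, at 257248 and 129456 CPM against 359987 and 207012 CPM. Chondrocyte markers had both libraries numbered 2 below in 5 of 6, with sums of 163 and 66.4 CPM in Sfrp4-/- and 452 and 101 CPM in WT libraries. Over all genes tested, both libraries numbered 2 lay below in 24.8%. No marker of either list was at 0 in all libraries. The part of these differences in the mitoribosomal pattern was not tested.

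Mitoribosomal transcripts are short. The longest protein-coding transcript had a median of 1339 bases in the 77 genes and 3120 bases in the protein-coding genes tested. Short transcripts in general were higher in the libraries numbered 2: in 600 protein-coding genes with transcripts under 1000 bases the median difference was 0.76 in Sfrp4-/- and 0.80 in WT, close to 0.82 and 0.68 in the 23 mitoribosomal genes of that length. Longer mitoribosomal genes also had medians above 0. From 1000 to 1999 bases they were 0.32 in Sfrp4-/- and 0.52 in WT over 29 genes, against 0.12 and 0.26 over 2495 protein-coding genes. From 2000 to 3999 bases the medians were 0.55 in Sfrp4-/- and 0.66 in WT over 16 genes, against -0.13 and -0.13 over 5046 protein-coding genes. At 4000 bases or more they were 0.45 and 0.72 over 9 genes, against -0.067 and -0.333 over 4233. The part of transcript length in the pattern was not tested further.

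**Figure D5:**
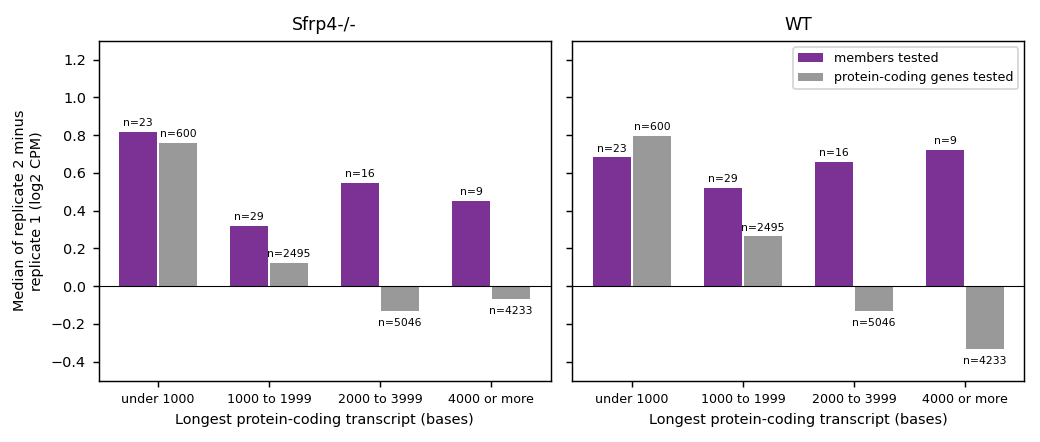
Median difference between libraries numbered 2 and 1 (log2 CPM) by length of the longest protein-coding transcript, in Sfrp4-/- (left) and WT (right), for the mitoribosomal genes and for all protein-coding genes tested, with the number of genes beside each bar. Mitoribosomal bars stay above 0 at each length, while the bars of all protein-coding genes lie below 0 from 2000 bases upward.

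Genes that work with the mitoribosome were taken from lists of 86 symbols, of which 83 were tested. With edgeR, 0 had an adjusted p under 0.05, as with DESeq2 and limma-voom, and 1 was higher and 1 lower at an unadjusted p under 0.05. Over all genes tested 1.41% were higher and 0.706% lower, so these counts are near the background. Their median log2 fold change was -0.033, with 36 of 83 above 0. Both libraries numbered 2 were on top in 25 of the 83, near the 24.9% of all genes tested, and both were lowest in 20. By list the count was 3 of 5 mitoribosomal proteins with other names, 7 of 25 assembly factors, 4 of 14 translation factors, 2 of 17 aminoacyl-tRNA synthetases, 7 of 10 genes of mitochondrial DNA maintenance and transcription, and 2 of 12 transcriptional regulators. Differences between the lists were not tested.

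Of ribosomal proteins with other names, Gadd45gip1, a large subunit protein, was at 19.3 and 25.1 CPM in Sfrp4-/- and 13.1 and 23.7 CPM in WT libraries (log2 fold change 0.27 ± 0.39, SE), with 42.0% of its exon bases shared with another gene. Dap3, a GTP-binding protein of the small subunit, was at 83.1 and 66.8 CPM in Sfrp4-/- and 91.8 and 77.9 CPM in WT libraries (-0.18 ± 0.30). The genotypes overlapped for both. Of the assembly factors, the GTPase gene Mtg2 was at 14.1 and 17.8 CPM in Sfrp4-/- and 17.1 and 23.8 CPM in WT libraries (-0.36 ± 0.34), and the helicase gene Ddx28 was at 24.5 and 13.4 CPM against 17.9 and 12 CPM (0.35 ± 0.41). Among translation factors, Guf1, a ribosome-dependent GTPase, was at 12.5 and 18.9 CPM in Sfrp4-/- and 6.60 and 10.3 CPM in WT libraries (0.89 ± 0.41). Mtif3, an initiation factor, was at 11.9 and 12.7 CPM in Sfrp4-/- and 13.1 and 20.0 CPM in WT libraries (-0.43 ± 0.35). Guf1 and Mtif3 had separate genotypes in opposite directions, and neither reached an unadjusted p under 0.05 in the edgeR fit. For Guf1 the unadjusted edgeR p was 0.045 with library totals alone or no filter on low counts and 0.025 without WT replicate 2, and it was 0.376 without Sfrp4-/- replicate 2.

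The synthetases held both genes with an unadjusted p under 0.05. Pars2, which charges mitochondrial tRNA with proline, had 88 and 55 counts in Sfrp4-/- libraries and 11 and 2 counts in WT libraries, or 4.75 and 2.68 CPM against 0.734 and 0.117 CPM (log2 fold change 3.12 ± 1.03, edgeR adjusted p = 1.00). Lars2, the leucine enzyme, was at 186 and 109 CPM in Sfrp4-/- and 293 and 274 CPM in WT libraries (-0.95 ± 0.36, edgeR adjusted p = 1.00). Both Sfrp4-/- libraries lay outside the WT range in each gene. The unadjusted p of Pars2 was 0.054 with limma-voom and, with edgeR, 0.175 without Sfrp4-/- replicate 1, and its log2 fold change was 4.91 without WT replicate 1. The unadjusted edgeR p of Lars2 was 0.065 with library totals alone, 0.287 without Sfrp4-/- replicate 2, 0.086 without WT replicate 1 and 0.061 without WT replicate 2. In the list of mitochondrial genome expression, Ssbp1, which binds single-stranded mitochondrial DNA, was at 25.8 and 49.8 CPM in Sfrp4-/- and 22.7 and 36.6 CPM in WT libraries (0.35 ± 0.42), and the transcription factor gene Tfb2m was at 19.4 and 21 CPM against 18.2 and 28.4 CPM (-0.20 ± 0.34). Among regulators tied to mitochondrial biogenesis, Myc was at 55.3 and 49.0 CPM in Sfrp4-/- and 47.8 and 34.7 CPM in WT libraries (0.34 ± 0.31). Of the 12 regulators, 1 had both Sfrp4-/- libraries above both WT libraries, which was Myc, and 2 had both below. Ppargc1b, a transcriptional coactivator, was at 1.40 and 5.93 CPM in Sfrp4-/- and 3.13 and 1.17 CPM in WT libraries (0.78 ± 0.88), with overlapping genotypes.

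The genes lie on many chromosomes, and many stand next to another gene that starts on the opposite strand. Such a protein-coding start within 1000 bases was annotated for 33 of the 78 genes (42.3%), against 16.1% of 12387 protein-coding genes tested. Mrpl46 and Mrps11, which encode a large and a small subunit protein, form such a pair on chromosome 7, with Mrps11 starting inside the span of Mrpl46. Mrps11 was at 36.2 and 56.0 CPM in Sfrp4-/- and 35.2 and 50.8 CPM in WT libraries (log2 fold change 0.10 ± 0.35, SE), against -0.26 ± 0.44 for Mrpl46. The members of the pair thus differed in sign, within their errors. Mrps12 and Sars2, the mitochondrial serine enzyme, start 172 bases apart, with log2 fold changes of 0.35 ± 0.33 and 0.28 ± 0.34.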

How the data were processed

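RNA-seq counts of 4 libraries were analysed, 2 of Sfrp4-/- and 2 of WT mice, with groups taken from the sample titles. The authors deposited raw whole-number counts per gene, not normalized, with coordinates and gene length in bases. The build mm10 and the tools HISAT2 2.0.5, featureCounts 1.00-p3, CASAVA and DESeq2 1.20.0 are named, per the submitters' processing notes. What each tool did, and the counting options, is not given in the sources used here. Per the labels, the libraries are SMARTer ultra-low-input and non-directional, so overlapping genes cannot be separated by strand.

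The test was edgeR 4.0.16 in R 4.3.3 (filterByExpr, TMM, glmQLFit and glmQLFTest with genotype only, Benjamini-Hochberg over 13737 genes, threshold 0.05). SE is |log2 fold change| / √F. The script was tested on simulated data. A single count was worth 0.0486 to 0.0667 CPM. Counting noise did not account for the difference between any 2 libraries (chi-square over degrees of freedom 51.7 to 229.6), and each was used as a replicate. The lowest values were those of same-numbered libraries of opposite genotype, at 51.7 for number 1 and 61.1 for number 2. Within a genotype the values were higher, at 163.0 in WT and 133.3 in Sfrp4-/-. Sums were compared with exact permutation tests in Python 3.11.15. Figures were drawn with matplotlib 3.10.9. TPM uses the deposited gene length. Overlaps and transcripts come from GENCODE M21, where 73 of the 78 genes have the deposited coordinates, and promoters from RefSeq.

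Members and lists were chosen with earlier results of these data known. Values in each library are given for the 6 genes with the lowest p in each direction, the highest and lowest 5 per length in WT, the Mrps18 paralogs, the genes with the largest difference between replicate numbers, the lowest p in each partner list, and Sfrp4 and the sort genes. Alternatives were median-of-ratios factors, library totals, no filter, limma-voom (limma 3.58.1), DESeq2 1.42.0, at least 5 CPM in 2 libraries, the replicate number as a block, each library left out, and genes with exon overlap left out.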

Additional observations from a re-analysis of the deposited data

How the results depend on the processing

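The fit reported has 2 libraries per genotype and a median SE of 0.37 on the log2 scale. Changes of modest size in single genes could not be detected in it. Since it uses genotype only, the difference between libraries numbered 1 and 2 is part of its error. The count of mitoribosomal genes past the adjusted edgeR, DESeq2 or limma-voom test was 0 under each alternative, as was that of the partner genes. The calls over all genes, 0 in the fit reported, were 20 with no filter, 5 with DESeq2 and 0 to 2 with a library left out. The median of the 77 genes was 0.081 with median-of-ratios factors or DESeq2, 0.33 with library totals alone (all genes 0.24), 0.10 with limma-voom, 0.12 with at least 5 CPM, 0.13 without overlapping genes, and -0.19 to 0.45 with a library left out. Leaving out a library leaves 1 in its genotype, which is then assumed to vary like the other genotype. The cause of the changes below was not tested.

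The replicate number is not said to mark a shared litter, day or batch. Deviations from the genotype means of same-numbered libraries correlated at 0.26 over all genes. With the replicate block, 1 gene passed over all genes and 0 mitoribosomal genes, and the median of the 77 genes was 0.10. Mrpl33 and, besides Pars2 and Lars2, the partner gene Guf1 then had an unadjusted edgeR p under 0.05, Mrpl33, Guf1 and Pars2 being higher in Sfrp4-/-, against 2.92% of all genes tested.

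Of 317 alternative fits of 29 named genes, 293 kept the direction and 24 reversed it. With library totals alone the log2 fold change reversed for Mrpl10 (0.015), Mrpl17 (0.0037), Mrps34 (0.10), Mrps18b (0.19), Dap3 (0.049) and Tfb2m (0.020). With a library left out it ran between -0.14 and 1.04 for Mrps36, -0.11 and 0.93 for Mrpl42, -0.60 and 0.013 for Mrpl9, -0.55 and 0.17 for Mrpl17, -0.81 and 0.20 for Mrpl46, -0.11 and 0.45 for Mrps18a, -0.11 and 0.050 for Mrps18b, -0.29 and 1.42 for Mrps18c, -0.53 and 1.10 for Mrpl1, -0.40 and 1.51 for Mrpl33, -0.095 and 0.76 for Gadd45gip1, -0.15 and 0.72 for Ddx28, -0.20 and 0.75 for Ssbp1, -0.49 and 0.15 for Tfb2m, -0.60 and 1.65 for Ppargc1b, and -0.23 and 0.43 for the log2 ratio of the summed level. Without a change of sign it ran between 0.12 and 0.99 for Mrpl52, 0.0027 and 1.02 for Mrps21, 0.062 and 0.60 for Mrpl51, 0.060 and 0.61 for Mrps12, -0.58 and -0.10 for Mtg2, -0.70 and -0.09 for Mtif3, 0.13 and 0.59 for Myc, 0.56 and 1.25 for Guf1, 2.33 and 4.91 for Pars2, and -1.38 and -0.61 for Lars2.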
